A study of Homo sapiens with 24 samples.

Results

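The 10 genes described here are feedback targets and modulators of WNT signalling: LEF1, TCF7, SP5, AXIN2, NKD1, DKK1, DKK4, APCDD1, RSPO3 and LGR5. They were chosen by symbol, each matched 1 of the 57820 genes of the deposited table, and all 10 were among the 19835 genes with enough reads to be tested. The cells were HUES6, an established human embryonic stem cell line grown in FTDA medium, either wild type (WT) or knocked out for the RNA-binding protein gene RBPMS (KO). Each genotype was sequenced uninduced (0 h) and after 3, 6 and 48 h of mesoderm induction, with 3 libraries per genotype and hour and 24 libraries in all. The inducing medium held 1.5 ng/ml BMP4 and 1.5 µM CHIR together, so responses to the 2 agents cannot be told apart. How many KO clones the libraries came from, and whether replicates were separate cultures, is not given in the sources used here, so p-values measure only the spread between these libraries.

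In WNT signalling, a secreted ligand bound to Frizzled and LRP receptors stops a cytoplasmic destruction complex, built on axin and containing the kinase GSK3, from marking beta-catenin for degradation. Beta-catenin then enters the nucleus and activates genes together with the DNA-binding TCF/LEF proteins. CHIR inhibits GSK3 and so acts below the receptors. Many of the activated genes encode parts or inhibitors of the pathway itself, and WNT activity together with BMP and NODAL signals is known to drive primitive streak and mesoderm formation.

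Levels are given as CPM, reads scaled to the same total in each library, and libraries held from 29896358 to 50451908 reads, so that 3 reads corresponded to 0.0595 to 0.1003 CPM. Changes are differences in log2(CPM + 0.25) after TMM scaling, given with their standard error (SE) from 1 limma fit over all 24 libraries. A gene is called changed where its p adjusted by Benjamini-Hochberg over the 19835 genes is under 0.05. The 6 embryonic stem cell markers examined, among them POU5F1, SOX2 and NANOG, were above 0.5 CPM in every group, and of 6 fibroblast markers 3 were above 0.5 CPM while COL3A1 and DCN were under 0.1 CPM in every group. RBPMS itself lay at 121 to 155 CPM in the WT and at 153 to 158 CPM in the KO libraries at 0 h, so its mRNA level does not check the KO label, and KO below means the libraries labelled so. Libraries 1 of WT at 0 h, 3 of KO at 3 h and 3 of WT at 48 h stood apart from the other replicates of their groups, with correlations of 0.975 to 0.978, 0.988 to 0.989 and 0.991, against 0.996 to 0.997 between those other replicates.

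Gene coordinates below are those of GENCODE 29, on GRCh38. The set of RefSeq promoters used (GRCh38.p14) held 6 of the 10 genes, and AXIN2, NKD1, LGR5 and DKK4 were not in it. The sequence just upstream of the start is described for the 4 genes whose RefSeq start lies within 100 bases of the GENCODE 29 gene start. The RefSeq starts of LEF1 and TCF7 lie farther away, and their windows held no match to the motifs below. TCF/LEF proteins bind motifs of the form CTTTGAT or CTTTGAA, which were searched on both strands of the 250 bases before the start and do not overlap one another in these windows. Of 35116 RefSeq promoter windows of that length, 2086 (5.94%) held at least 1 match and 7 (0.0199%) at least 3. SP5 held 3 matches, at 148 to 142, 109 to 103 and 84 to 78 bases before its start, DKK1 held 1 at 95 to 89 bases before its start, and RSPO3 and APCDD1 held none. The windows of SP5 (chr2:170715087-170715336), DKK1 (chr10:52314031-52314280) and RSPO3 (chr6:127118421-127118670), all on the plus strand, are shown because these 3 genes had the largest differences between KO and WT at 48 h. Capitals mark the matches on either strand.
SP5: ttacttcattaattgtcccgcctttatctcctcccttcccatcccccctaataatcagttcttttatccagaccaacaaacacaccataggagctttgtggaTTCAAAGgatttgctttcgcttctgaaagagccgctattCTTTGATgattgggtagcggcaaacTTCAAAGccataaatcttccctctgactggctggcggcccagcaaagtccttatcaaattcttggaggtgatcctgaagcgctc
DKK1: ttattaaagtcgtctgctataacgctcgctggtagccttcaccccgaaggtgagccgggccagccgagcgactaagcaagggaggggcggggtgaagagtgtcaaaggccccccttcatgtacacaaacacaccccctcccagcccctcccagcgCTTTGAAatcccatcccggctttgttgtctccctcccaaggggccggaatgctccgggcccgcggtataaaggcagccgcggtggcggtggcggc
RSPO3: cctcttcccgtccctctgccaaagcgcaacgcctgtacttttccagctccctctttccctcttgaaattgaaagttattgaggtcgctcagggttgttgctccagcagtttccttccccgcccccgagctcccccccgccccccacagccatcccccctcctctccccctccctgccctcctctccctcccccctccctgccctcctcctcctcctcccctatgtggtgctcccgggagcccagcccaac
A match is a description of the letters and not a measured binding site.

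After 3 h, 8 of the 10 genes had risen in WT and 9 in KO, where 28.6% and 33.1% of all tested genes were called higher. At 6 h 8 genes were above 0 h in each genotype (31.1% and 33.4% of all genes). At 48 h all 10 were higher in WT and 9 in KO (26.8% and 25.4% of all genes). None of the 10 was lower than at 0 h by this test at any hour in either genotype. In KO at 6 h, AXIN2 was called lower in 3 of 13 other settings and DKK1 in 1 of 12. The median change of the 10 genes was 1.86, 1.47 and 4.51 on the log2 scale in WT at 3, 6 and 48 h and 2.22, 1.51 and 2.50 in KO, against medians over all tested genes between -0.02 and 0.01. The genes followed 3 courses, which the plot of levels by library shows: means highest at 3 h (LEF1, NKD1, LGR5), a smaller early step and a larger later rise (SP5, DKK4), and a rise almost entirely after 6 h (DKK1, RSPO3). For NKD1 and LGR5 in WT, however, the libraries of 3 and 48 h overlapped. APCDD1 had a larger step after 6 h than at 3 h in WT (2.81 against 2.05) and the reverse in KO (1.79 against 2.62). TCF7 was near its 3 h level at 6 h in both genotypes and fell by 48 h in KO, and AXIN2 moved little.

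**Figure D1:**
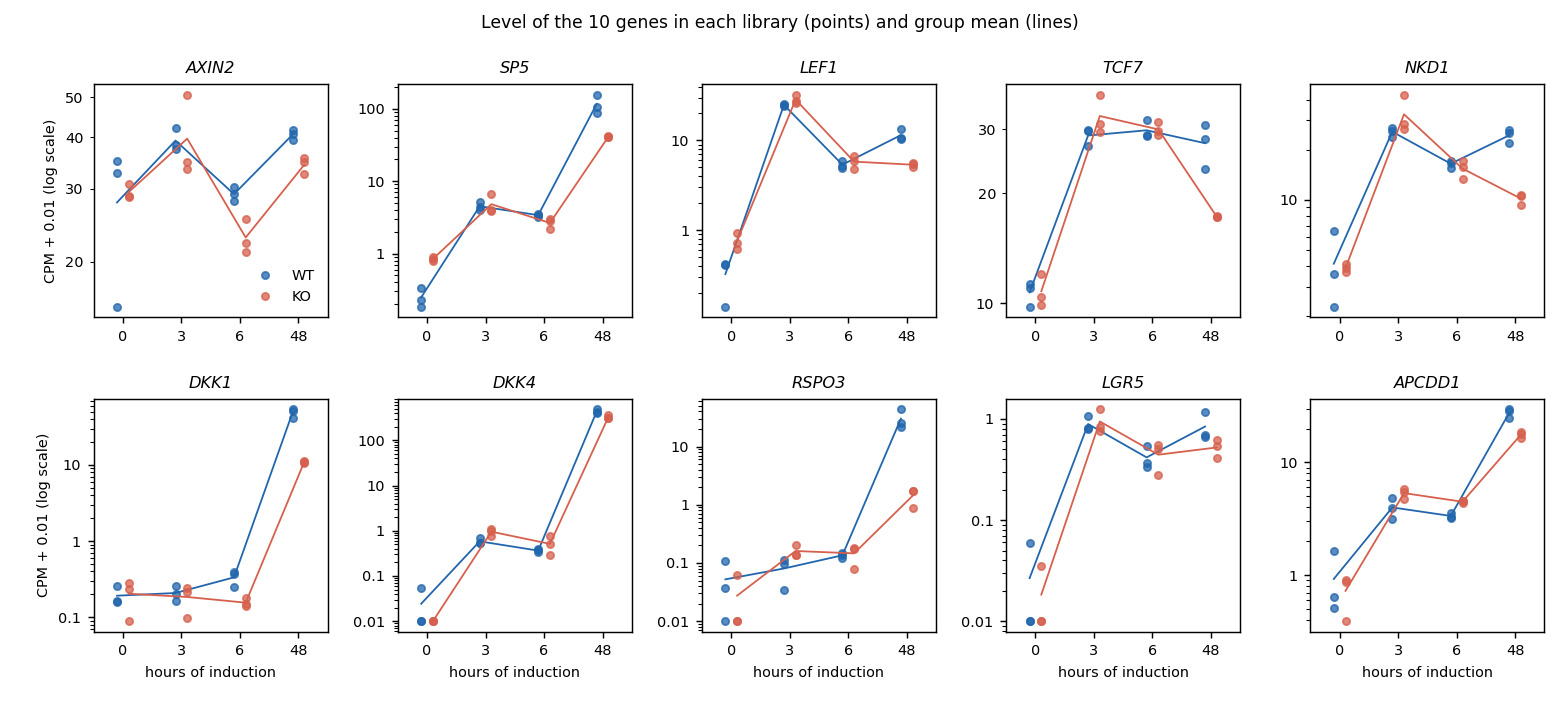
Level of each of the 10 genes in each of the 24 libraries, as CPM + 0.01 on a log axis against hours of induction (not to scale); points are libraries, lines join the means of 3, blue is WT and red is KO. LEF1 is highest at 3 h, DKK1 and RSPO3 stay under 0.5 CPM until 48 h, and at 48 h the red points lie below the blue ones in all 10 panels.

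Among the transcription factors, LEF1 (chr4:108047545-108168956), a nuclear partner of beta-catenin that is itself a WNT target, had the largest 3 h change of the 10 on the log2(CPM + 0.25) scale. By the ratio of mean CPM it was first in WT (79.8) but not in KO, where LGR5, with 1 read at 0 h, gave 112 and LEF1 38.3, and DKK4 had no reads at 0 h. LEF1 was at 0.129, 0.400 and 0.408 CPM in the WT libraries at 0 h, from 6 to 16 reads each, and at 0.708, 0.923 and 0.603 CPM in KO. At 3 h it reached 25.6, 24.3 and 24.8 CPM in WT, against 25.8, 27.5 and 32.3 CPM in KO. No 3 h library overlapped a 0 h library, and LEF1 rose by 5.60 ± 0.18 in WT and by 4.91 ± 0.18 in KO on the log2 scale (adjusted p 7.16e-17 and 2.86e-16). By 6 h the levels were 5.94, 5.17 and 4.96 CPM in WT, against 5.91, 6.61 and 4.85 CPM in KO. LEF1 thus fell by 2.14 ± 0.18 in WT and by 2.22 ± 0.18 in KO from 3 to 6 h (adjusted p 2.22e-08 and 7.85e-09) while staying above 0 h. At 48 h it was at 10.5, 13.5 and 10.3 CPM in WT, against 5.61, 5.05 and 5.38 CPM in KO. The second rise, from 6 to 48 h, passed the test in WT (0.91 ± 0.18, adjusted p 0.000104), whereas the KO value was -0.24 ± 0.18 (adjusted p 0.252). The difference between these 2 changes was -1.14 ± 0.25 (adjusted p 0.00363), a comparison added after the data were seen.

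TCF7 (chr5:134114711-134151865), the other TCF/LEF gene here, started from a measurable level and changed least in range after AXIN2. TCF7 was at 9.77, 11.3 and 11.01 CPM in WT, against 10.4, 9.88 and 12.01 CPM in KO at 0 h. It was at 29.6, 29.9 and 26.9 CPM in WT, against 31.1, 29.5 and 37.3 CPM in KO at 3 h. That step was 1.51 ± 0.10 in WT and 1.62 ± 0.10 in KO (adjusted p 2.42e-11 and 3.53e-12), with no overlap between hours. At 6 h TCF7 stayed at 31.7, 28.9 and 28.8 CPM in WT, against 29.6, 31.4 and 28.9 CPM in KO, and the genotypes overlapped. At 48 h it was at 28.1, 30.9 and 23.3 CPM in WT, against 17.3, 17.2 and 17.2 CPM in KO. The WT libraries at 48 h overlapped those at 6 h, with a called difference of -0.28 ± 0.10 (adjusted p 0.0196) whose adjusted p rose to 0.122 when the first WT library of 6 h was left out and to 0.121 when the third of 48 h was. All KO libraries at 48 h lay below those at 6 h (-0.93 ± 0.10, adjusted p 3.75e-08).

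SP5, a zinc finger factor whose gene is a known direct target of beta-catenin, began near the detection limit and ended among the highest of the 10. SP5 was at 0.324, 0.175 and 0.217 CPM in WT at 0 h, 7 to 15 reads each, and at 0.885, 0.824 and 0.787 CPM in KO, 30 to 35 reads each. At 3 h it was at 4.36, 5.15 and 3.97 CPM in WT, against 3.86, 3.94 and 6.61 CPM in KO. All 0 h KO libraries lay above all 0 h WT libraries, and at 3 h the genotypes overlapped. SP5 was at 3.53, 3.43 and 3.20 CPM in WT, against 2.95, 2.18 and 2.78 CPM in KO at 6 h. By 48 h SP5 was at 88.8, 105 and 156 CPM in WT, against 40.3, 42.4 and 40.6 CPM in KO. The change from 0 to 48 h was 7.82 ± 0.20 in WT and 5.20 ± 0.20 in KO (adjusted p 4.17e-19 and 9.06e-16). The highest WT value came from library 3, which stood apart from the other replicates of its group.

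Of the intracellular inhibitors, AXIN2 (chr17:65528563-65561647), a scaffold of the destruction complex and a common reporter of WNT activity, changed least. AXIN2 was at 15.6, 32.8 and 35.1 CPM in WT, against 28.6, 28.9 and 30.9 CPM in KO at 0 h. It was at 38.3, 42.2 and 37.4 CPM in WT, against 33.6, 34.8 and 50.7 CPM in KO at 3 h. The lowest 0 h value and the highest 3 h value belong to the WT 0 h and KO 3 h libraries that stood apart. The change from 0 to 3 h was 0.68 ± 0.19 in WT (adjusted p 0.00415) and 0.45 ± 0.19 in KO (adjusted p 0.0400). The WT value ran from 0.28 to 0.89 over 6 fits that each left out 1 library, all called. With only the groups compared it was not called (0.65, adjusted p 0.11). The KO call ended without KO 3 h library 3 (0.26, adjusted p 0.244) and without any 1 of the 3 KO 0 h libraries (0.43 to 0.48, adjusted p 0.0588 to 0.0906). AXIN2 was at 29.2, 30.2 and 27.98 CPM in WT, against 25.4, 22.2 and 21.04 CPM in KO at 6 h. All KO libraries of 6 h lay below those of 0 h, with a change of -0.28 ± 0.19 that was not called (adjusted p 0.197). It was called with only the groups compared (-0.27, adjusted p 0.0043) and without the 3 libraries that stood apart (-0.28, adjusted p 0.000288). AXIN2 at 48 h was at 39.3, 41.8 and 40.7 CPM in WT, against 32.5, 34.8 and 35.7 CPM in KO. The WT change from 0 to 48 h, 0.61 ± 0.19 (adjusted p 0.00978), was 0.23 (adjusted p 0.0837) without WT 0 h library 1, and the KO change was 0.16 ± 0.19 (adjusted p 0.494). AXIN2 had the highest level per kilobase of the 10 at 0 h in both genotypes, at 5.32 CPM per kb in WT and 5.64 in KO.

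NKD1 (chr16:50548330-50649249), an inhibitor that acts on Dishevelled, had its highest mean at 3 h like LEF1, in WT with libraries that overlapped those of 48 h. NKD1 was at 6.51, 2.27 and 3.59 CPM in WT, against 4.10, 3.87 and 3.67 CPM in KO at 0 h. It was at 26.9, 26.1 and 23.98 CPM in WT, against 28.5, 26.8 and 42.8 CPM in KO at 3 h. The rise was 2.78 ± 0.22 in WT and 3.01 ± 0.22 in KO (adjusted p 5.19e-10 and 6.76e-11), with the KO 3 h library that stood apart again the highest. NKD1 was at 16.7, 17.1 and 15.6 CPM in WT, against 15.8, 17.03 and 13.4 CPM in KO at 6 h. NKD1 at 48 h was at 21.9, 25.1 and 26.2 CPM in WT, against 10.5, 9.33 and 10.6 CPM in KO. From 6 to 48 h NKD1 fell by 0.72 ± 0.22 in KO (adjusted p 0.00717), while the WT value was 0.41 ± 0.22 (adjusted p 0.117). The difference between those changes was -1.13 ± 0.31 (adjusted p 0.0247), and its call ended in 5 of 12 fits that each left out 1 library, with adjusted p from 0.0532 to 0.0717.

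Of the secreted and membrane inhibitors, DKK1 and DKK4 rose mainly after 6 h. DKK1, which blocks WNT by binding LRP5 and LRP6, was at 0.151, 0.150 and 0.245 CPM in WT, against 0.228, 0.275 and 0.0787 CPM in KO at 0 h, from 3 to 11 reads each. At 3 h it was at 0.152, 0.192 and 0.251 CPM in WT, against 0.231, 0.206 and 0.0864 CPM in KO. Nothing passed the test for DKK1 at 3 h, and libraries of 0 and 3 h overlapped in both genotypes. At 6 h it was at 0.357, 0.238 and 0.377 CPM in WT, against 0.141, 0.128 and 0.167 CPM in KO. The WT change at 6 h was 0.48 ± 0.18 (adjusted p 0.0289), and its call ended without either of 2 WT 0 h libraries or either of 2 WT 6 h libraries (adjusted p 0.0807 to 0.106). At 48 h DKK1 reached 41.6, 53.7 and 50.5 CPM in WT, against 11.2, 11.1 and 10.4 CPM in KO. Its change from 0 to 48 h was 6.76 ± 0.18 in WT and 4.62 ± 0.18 in KO (adjusted p 1.56e-18 and 2.29e-15).

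DKK4, a secreted inhibitor of the same family, went from no or nearly no reads to the highest level of the 10. DKK4 had 2, 0 and 0 reads in the WT libraries and 0 reads in each KO library at 0 h. At 3 h it was at 0.521, 0.670 and 0.527 CPM in WT, against 0.977, 0.772 and 1.08 CPM in KO. At 6 h it was at 0.357, 0.377 and 0.327 CPM in WT, against 0.492, 0.278 and 0.736 CPM in KO. These early levels were low but above all 0 h libraries, and the calls at 3 h had adjusted p of 3.37e-08 in WT and 1.14e-10 in KO. At 48 h DKK4 was at 398, 423 and 482 CPM in WT, against 314, 311 and 356 CPM in KO. The ratio of WT reads at 48 h to the 2 reads at 0 h was 26830 (95% exact interval 7427 to 221600, counting error only). In KO, DKK4 was at least 4273-fold higher at 48 h than a floor of 3 reads per library at 0 h.

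APCDD1, a membrane glycoprotein that binds WNT ligands and LRP5, had both an early and a late step. APCDD1 (chr18:10454628-10489948) was at 1.62, 0.499 and 0.625 CPM in WT, against 0.380, 0.899 and 0.866 CPM in KO at 0 h. It was at 3.95, 4.81 and 3.16 CPM in WT, against 5.84, 4.71 and 5.45 CPM in KO at 3 h. The highest 0 h value again came from WT library 1, and all 3 h libraries lay above all 0 h libraries. At 6 h APCDD1 was at 3.53, 3.19 and 3.30 CPM in WT, against 4.52, 4.49 and 4.38 CPM in KO. At 48 h it was at 29.6, 28.8 and 24.6 CPM in WT, against 16.5, 17.9 and 18.6 CPM in KO. From 6 to 48 h it rose by 2.81 ± 0.25 in WT and by 1.79 ± 0.25 in KO (adjusted p 1.08e-09 and 1.27e-06), and the difference of -1.02 ± 0.35 missed the threshold (adjusted p 0.0782).

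RSPO3 and LGR5 belong to the arm that strengthens WNT signalling: R-spondins such as RSPO3 bind LGR receptors such as LGR5 and keep Frizzled receptors at the cell surface. RSPO3 had 0, 4 and 1 reads in the WT libraries and 0, 0 and 2 in the KO libraries at 0 h. It stayed between 0.0239 and 0.195 CPM in all 12 libraries of 3 and 6 h, 1 to 9 reads each. The calls of RSPO3 in KO at 3 and 6 h (0.60 ± 0.23 and 0.55 ± 0.23, adjusted p 0.0248 and 0.0360) rest on these few reads and ended in 3 and 4 of the fits that left out 1 library. At 48 h RSPO3 was at 25.3, 43.4 and 21.6 CPM in WT, against 1.70, 0.856 and 1.69 CPM in KO. Every library of 48 h lay above every earlier library, and the lowest WT library lay far above the highest KO library. In WT the mean rose from 0.0424 to 30.1 CPM. In KO it rose from 0.0175 to 1.42 CPM, a ratio of reads of 81.3 (95% exact interval 22.2 to 676).

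LGR5 (chr12:71439770-71586310) was the lowest of the 10 at 48 h. It had 0, 2 and 0 reads in the WT and 0, 1 and 0 reads in the KO libraries at 0 h. It was at 0.781, 1.05 and 0.804 CPM in WT, against 0.746, 0.823 and 1.23 CPM in KO at 3 h. The ratios of reads between 3 and 0 h were 54.0 in WT (95% exact interval 14.6 to 452) and 112 in KO (19.7 to 4460). At 6 h LGR5 was at 0.357, 0.535 and 0.327 CPM in WT, against 0.539, 0.492 and 0.268 CPM in KO. At 48 h it was at 0.648, 1.16 and 0.682 CPM in WT, against 0.399, 0.530 and 0.608 CPM in KO. All induced libraries lay above all uninduced ones, and LGR5 stayed under 1 CPM in all but 3 libraries.

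**Figure D2:**
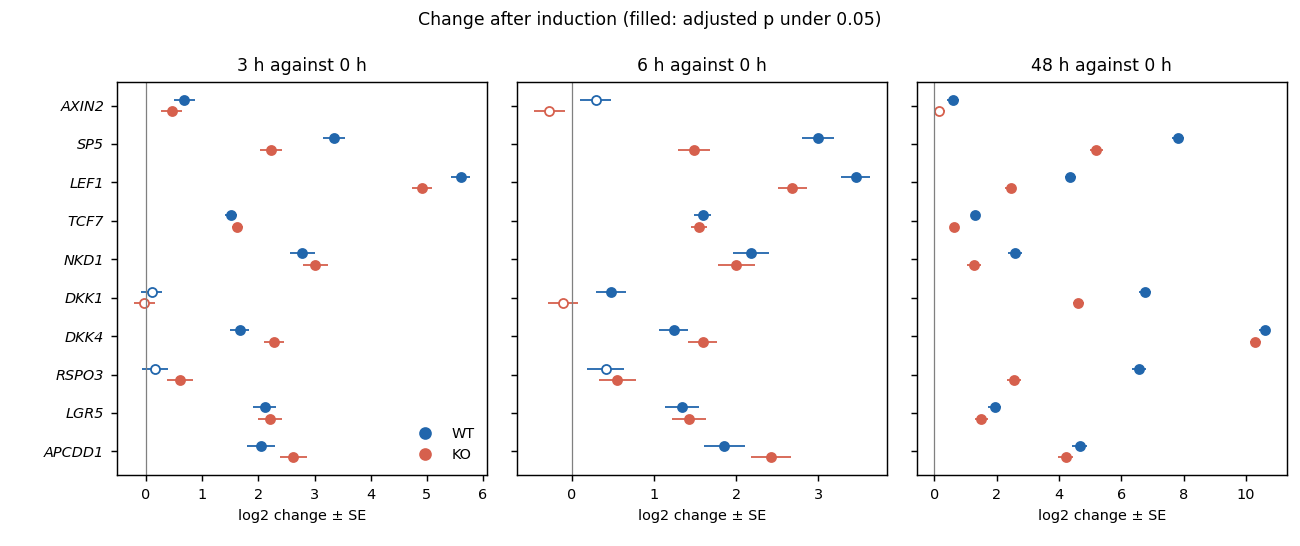
Change of each gene from 0 h at 3, 6 and 48 h, as log2 change with SE bars, WT in blue and KO in red, with filled points for adjusted p under 0.05; the x axes differ between panels. LEF1 has the largest 3 h change on this scale, DKK4 the largest 48 h change, and SP5, LEF1, DKK1 and RSPO3 show the widest gaps between WT and KO at 48 h.

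Between 3 and 6 h, 2 of the 10 genes fell in WT (LEF1 and LGR5) and 6 fell in KO (LEF1, NKD1, DKK4, LGR5, SP5 and AXIN2), where 8.31% and 11.1% of all genes were called lower. Values in WT for the 4 others were -0.60 ± 0.22 for NKD1, -0.43 ± 0.17 for DKK4, -0.35 ± 0.20 for SP5 and -0.39 ± 0.19 for AXIN2. These did not pass the test (adjusted p 0.0734 to 0.267), and the KO calls for AXIN2, LGR5 and SP5 ended without KO 3 h library 3 (adjusted p 0.0682, 0.0697 and 0.0851). Those for DKK4 and SP5 also ended without KO 6 h library 2 (0.0732 and 0.0627), and those for AXIN2 and LGR5 without KO 6 h library 3 (0.0557 and 0.0920). In WT the LGR5 call was lost without 3 h library 2 (0.0684), 6 h library 1 (0.0513) or 6 h library 3 (0.0665). The count in WT was 6 and not 2 when the 3 libraries that stood apart were left out. Whether the fall differed between genotypes was not tested. Between 6 and 48 h, 7 genes rose (30.9% of all genes) and TCF7 fell (32.8%) in WT, and 6 rose (30.1%) and 2, TCF7 and NKD1, fell (32.6%) in KO. Among these calls, that of LGR5 in WT was lost when the third library of 6 h (adjusted p 0.0670) or the second library of 48 h (0.121) was left out, and that of AXIN2 in KO ended without any 1 of 4 libraries (adjusted p 0.0659 to 0.0945).

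At 48 h, per kilobase of merged exons in GENCODE 29, DKK4 stood first in WT with 485 CPM per kb, followed by SP5 with 56.7, DKK1 with 22.03, RSPO3 with 9.46 and AXIN2 with 7.77. APCDD1, TCF7, LEF1 and NKD1 followed with 4.65, 2.73, 2.14 and 1.40 CPM per kb, and LGR5 was last with 0.158. In KO the first 2 places were the same, with 366 for DKK4 and 19.96 for SP5, and RSPO3 stood ninth with 0.445 CPM per kb. The versions of the table's gene identifiers match GENCODE 29 for 2 of the 10 genes, so the lengths may differ from those of the gene models counted. This bears most on NKD1, for which the deposited transcript counts summed to 245% of the reads in the gene table.

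Before induction, 2 of the 10 genes were called higher in KO and 0 lower, where 8.77% of all genes were called higher. Other genes were called lower, so the share called in either direction was larger. SP5 was higher in KO by 1.18 ± 0.20 (adjusted p 0.000303), with means of 0.832 CPM in KO and 0.239 CPM in WT. LEF1 was higher by 0.88 ± 0.18 (adjusted p 0.00161), with means of 0.745 and 0.312 CPM. For both genes all KO libraries lay above all WT libraries, at fewer than 40 reads per library. The LEF1 call ended when only the 2 groups compared were fitted (adjusted p 0.159). At 3 h none of the 10 was called (2.78% of all genes were), and at 6 h none was called (2.45%) by limma, edgeR or DESeq2. At an unadjusted p under 0.05, 1 gene differed at each hour: DKK4 at 3 h, with 0.54 ± 0.17, and DKK1 at 6 h, with -0.54 ± 0.18. A gene that misses the threshold at these hours is not shown to be equal in KO and WT.

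At 48 h, 6 of the 10 genes were lower in KO and none was higher, where 5.07% of all genes were called lower. All 10 had every KO library below every WT library, which held in either direction for 35.9% of all genes. The median difference of the 10 was -0.83 on the log2 scale, against -0.01 over all tested genes. The 6 called differences kept their call in all 13 other settings and in all 6 fits that left out 1 library of the 2 groups. Fewer cells expressing a gene and less RNA per cell cannot be told apart in these bulk libraries.

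**Figure D3:**
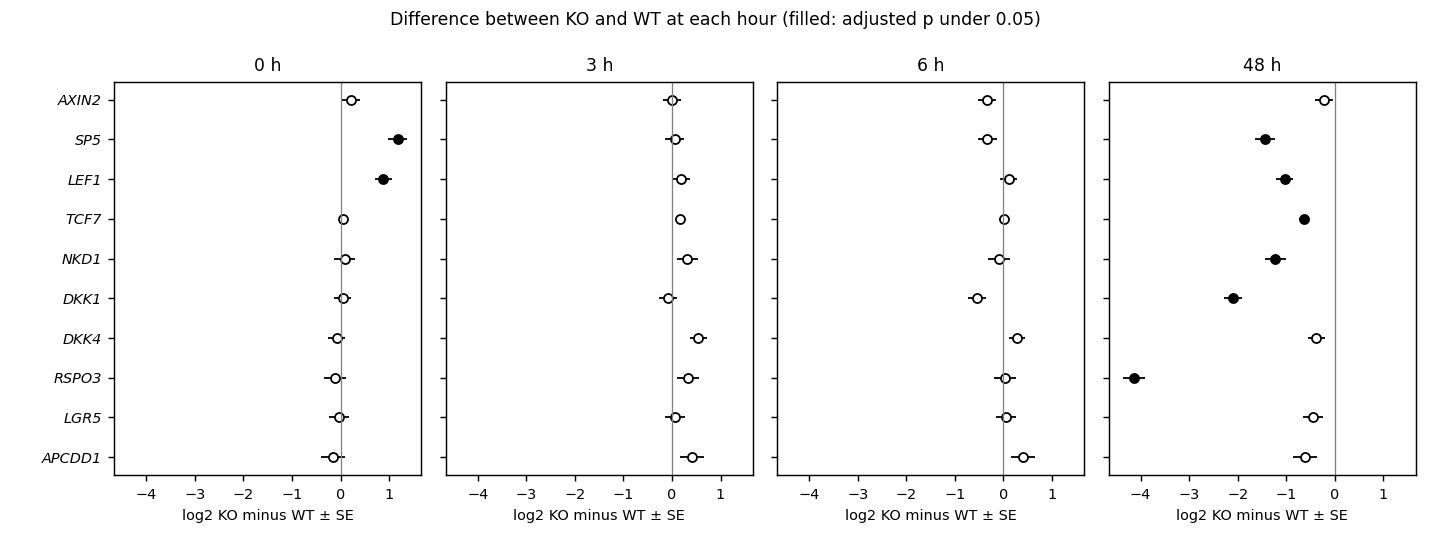
Difference between KO and WT in each gene at 0, 3, 6 and 48 h, as log2 KO minus WT with SE bars; filled points have an adjusted p under 0.05. SP5 and LEF1 lie to the right at 0 h, no point is filled at 3 or 6 h, and at 48 h all points lie left of 0 with RSPO3 at -4.14.

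RSPO3 differed most at 48 h. Its mean was 1.42 ± 0.48 CPM (SD, n = 3) in KO and 30.1 ± 11.7 CPM in WT, 4.70% of the WT mean, with a difference of -4.14 ± 0.23 (adjusted p 2.73e-11). DKK1 was at 22.5% of the WT mean, with -2.10 ± 0.18 (adjusted p 2.83e-08). SP5 was at 35.2%, with -1.44 ± 0.20 (adjusted p 1.71e-05), and without WT library 3 the SP5 difference was still called at -1.19. These 3 are a ligand that strengthens WNT signalling, a secreted inhibitor of it and a nuclear target, so both signs of regulation are among the largest differences.

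NKD1 was at 41.6% of the WT mean, with -1.22 ± 0.22 (adjusted p 0.000451). LEF1 was at 46.7%, with -1.03 ± 0.18 (adjusted p 0.000217), and TCF7 at 62.8%, with -0.63 ± 0.10 (adjusted p 9.85e-05). The other 4 genes gave values that missed the threshold: APCDD1 -0.62 ± 0.25, LGR5 -0.46 ± 0.21, DKK4 -0.39 ± 0.17 and AXIN2 -0.22 ± 0.19 (adjusted p 0.118, 0.174, 0.175 and 0.538). For DKK4 the means were 434 CPM in WT and 327 CPM in KO, and edgeR (adjusted p 0.0475) and DESeq2 (0.0222) called it on the recovered reads. APCDD1 was called by DESeq2 (0.0220) and when the 3 libraries that stood apart were left out (0.00877).

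The change from 0 to 48 h itself differed between genotypes for the same 6 genes, where 3.92% of all genes were called with a negative difference. On the log2 scale, KO minus WT, it was -2.62 ± 0.28 for SP5, -1.92 ± 0.25 for LEF1, -2.14 ± 0.26 for DKK1 and -4.03 ± 0.32 for RSPO3 (adjusted p 1.93e-06, 2.23e-05, 1.12e-05 and 3.20e-08). It was -1.31 ± 0.31 for NKD1 and -0.69 ± 0.14 for TCF7 (adjusted p 0.0112 and 0.00318), and the NKD1 call ended when only the 4 groups compared were fitted (adjusted p 0.0765). The RSPO3 value rests on 5 WT and 2 KO reads at 0 h, and it was not called by edgeR (-3.32, adjusted p 0.340) or DESeq2 (-3.17, adjusted p 0.0982). The interval from 6 to 48 h does not use the 0 h libraries and was added after the data were seen. Over it the same 6 genes were called with a negative difference, as were 2.9% of all genes. That difference was -4.17 ± 0.32 for RSPO3 (adjusted p 3.66e-09), -1.56 ± 0.26 for DKK1 (0.000239), -1.10 ± 0.28 for SP5 (0.0125) and -0.65 ± 0.14 for TCF7 (0.00382). For DKK1, with 5 to 16 reads per library at 6 h, edgeR and DESeq2 did not call it (adjusted p 0.214 and 0.217). At 3 and 6 h against 0 h only SP5 was called, with -1.12 ± 0.28 and -1.52 ± 0.28 (adjusted p 0.0122 and 0.000954). Of all genes, 5.45% and 5.46% were called with a negative difference at these hours. The SP5 levels of KO and WT were not called different at 3 or 6 h and KO was higher at 0 h, and the 3 h call ended with a pseudocount of 1 (adjusted p 0.206). LEF1 gave -0.69 at 3 h and -0.78 at 6 h (adjusted p 0.0860 and 0.0550). It was called by edgeR (adjusted p 0.0313 and 0.0253) and DESeq2 (0.00952 and 0.00746), and in all in 4 and 7 of the 13 other settings, over which the adjusted p ran up to 0.447 and 0.284.

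Markers of the pluripotent state and of the streak, and 2 of the endoderm, moved with genotype at 48 h as well. The 6 primitive streak and early mesoderm markers summed to 1647 to 1840 CPM in the WT and 1019 to 1143 CPM in the KO libraries. All 6 were called lower in KO, where 5.07% of all genes were. The 6 embryonic stem cell markers summed to 4514 to 4641 CPM in WT and 5780 to 5977 CPM in KO. Of them 5 were called higher in KO, where 6.86% of all genes were. The sums of the 5 definitive endoderm markers overlapped, at 2213 to 2615 CPM in WT and 2593 to 2995 CPM in KO. Of the 5, 2 were called higher in KO, against the same 6.86% of all genes. CER1 made up most of these sums, with means of 2260 CPM in WT and 2539 CPM in KO. Every KO library lay above every WT library for FOXA2 (means 19.9 in WT and 49.1 CPM in KO) and CXCR4 (10.6 and 42.5 CPM). HAND1 was under 0.1 CPM in KO at 48 h, as it was at 0 h in both genotypes. No member of the 10 stands in these marker lists. The part of these shifts in the 48 h differences was not tested.

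The deposited transcript counts, which came to 22.1% to 26.4% of the gene reads, resolve few isoforms of these genes. LEF1 had 25 transcript counts and LGR5 had 3 over all 24 libraries, so the forms of LEF1 with and without the beta-catenin binding region could not be told apart. DKK4 has 1 transcript in the table, and nearly all SP5 counts fell on SP5-201. AXIN2-207, a short protein-coding transcript at chr17:65558046-65560296, had 205 counts in KO 3 h library 3 and 233 in WT 48 h library 3, against 7 to 86 in the other 22 libraries. Those are the 2 induced libraries that stood apart from the other replicates of their groups. The total for AXIN2 in WT 48 h library 3 was 40.7 CPM, between its 2 replicates.

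By the root mean square difference of the 8 group means on the log2 scale, each centred on its own average, the genes closest to each of the 10 were sought among 12318 genes with at least 5 CPM in some group. AXIN2 was closest to ZNF821 (0.08) and TLE4 (0.11), a corepressor that binds TCF/LEF proteins. TCF7 was closest to CUEDC1 and ERF (0.14 each), NKD1 to TMEM154 and KLF5 (0.26 and 0.27), and APCDD1 to H2AFY2 and IER3 (0.13 and 0.32). LEF1 was closest to MBNL3 and ZEB2 (0.53 and 0.59), and SP5 to PLXNA2 and GABRB2 (0.65 and 0.67). DKK4 was closest to MIXL1, a primitive streak homeobox gene, and FGF17 (0.65 and 0.77). DKK1 was closest to AL353751.1 and SPATA16 (0.23 and 0.37), RSPO3 to AC131094.1 and EVX1-AS (0.48 and 0.67), and LGR5 to UBXN10 and MAGI3 (0.21 and 0.26). Among the 10 themselves, NKD1 and LGR5 were the closest pair (0.38), then TCF7 and LGR5 (0.40), and DKK1 and RSPO3 were at 0.81. Low genes have compressed differences on this scale, which makes LGR5 appear close to genes of smaller fold changes.

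Other genes of the pathway were counted in 4 lists. Of 29 other secreted or membrane modulators, 26 were tested. At 48 h in WT 7 were higher and 10 lower than at 0 h, where 26.8% and 26.5% of all genes were called so, with a median of -0.07. CER1, a secreted inhibitor of NODAL, BMP and WNT ligands, rose from 0.228 to 2260 CPM in WT (12.15 ± 0.10, adjusted p 5.74e-29), and WLS, which carries WNT ligands to the cell surface, rose by 5.14 ± 0.34. LGR4, another R-spondin receptor, fell by 1.80 ± 0.09 from 159 to 45.9 CPM, and TRABD2A, a membrane protease that inactivates WNT ligands, fell by 1.89 ± 0.15. Between genotypes at 48 h 6 of the 26 were higher in KO and 1, WLS, was lower (-2.00 ± 0.34, adjusted p 0.000249), against 6.86% of all genes higher and 5.07% lower. TRABD2A was higher in KO by 1.02 ± 0.15 and SFRP5, a secreted WNT-binding inhibitor, by 1.06 ± 0.16 at means of 0.938 and 0.318 CPM.

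The 18 coreceptor and destruction complex genes were all tested. In WT at 48 h 9 were higher and 3 lower than at 0 h (26.8% and 26.5% of all genes), with a median of 0.28. CSNK1E and FBXW11, a kinase and a ubiquitin ligase subunit, fell by 1.09 ± 0.13 and 0.64 ± 0.09, and DVL2 and CSNK1D rose by 0.56 ± 0.09 and 0.52 ± 0.09. None of the 18 was called between KO and WT at 48 h, with a median of -0.01. Of all genes, 6.86% were called higher and 5.07% lower, and 18 genes are too few for 0 calls to set this list apart. Of 16 nuclear effectors 9 were higher and 3 lower in WT at 48 h, against the same shares of all genes. TCF7L2 and TCF7L1, the other TCF genes, fell by 1.36 ± 0.07 and 1.13 ± 0.12, while the corepressor TLE3 and the coactivator BCL9 rose by 0.97 ± 0.12 and 0.77 ± 0.11. Between genotypes at 48 h 3 of the 16 were higher in KO and 1 lower (6.86% and 5.07% of all genes): TCF7L2 was higher by 0.58 ± 0.07 (adjusted p 5.12e-06) and TCF7L1 by 0.49 ± 0.12 (adjusted p 0.00703). TCF7 and LEF1 were lower in KO at the same hour, so 2 TCF/LEF genes were higher in KO and 2 were lower.

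Of 30 other known beta-catenin targets, 29 were tested, and 21 were higher and 5 lower in WT at 48 h (26.8% and 26.5% of all genes), with a median of 2.36. TBXT, the gene of the mesoderm factor brachyury, rose from 0.0250 to 246 CPM. WNT8A rose by 6.11 ± 0.15 and the retinoic acid hydroxylase gene CYP26A1 by 6.06 ± 0.21. Between genotypes at 48 h 13 of the 29 were lower in KO and 3 higher (5.07% and 6.86% of all genes), with a median of -0.34. MSGN1 and CDX1, transcription factors of presomitic and posterior mesoderm, were lower by 3.74 ± 0.21 and 2.86 ± 0.15 (adjusted p 2.73e-11 and 1.73e-11). TBXT was lower by 2.08 ± 0.14, WNT8A by 1.85 ± 0.15 and CYP26A1 by 0.91 ± 0.21. TBXT and TBX6 also stand in the streak marker list above, CER1 in the endoderm list and CDX2 in the amnion or trophoblast list.

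**Figure D4:**
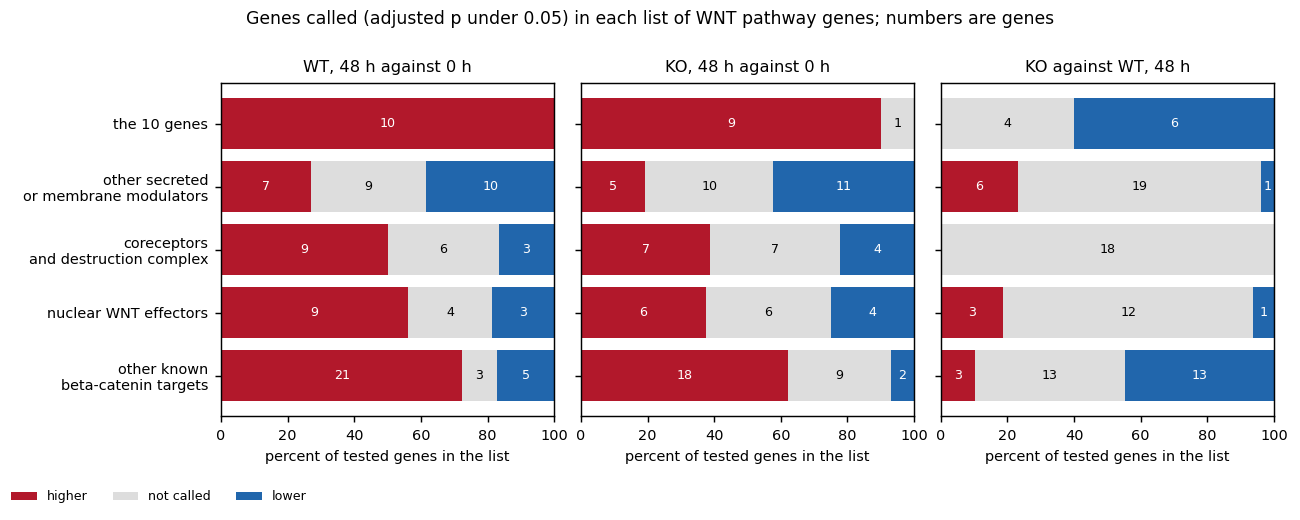
Share of tested genes in each list called higher (red), not called (grey) or called lower (blue) at adjusted p under 0.05, with the number of genes printed on each bar, for WT at 48 against 0 h, KO at 48 against 0 h, and KO against WT at 48 h. In the third panel 6 of the 10 genes and 13 of 29 other beta-catenin targets are lower, and no coreceptor or destruction complex gene is called. Of all tested genes, 5.07% were called lower and 6.86% higher in that comparison.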

How the data were processed

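RNA was sequenced from 24 HUES6 libraries with a stranded mRNA kit, per the labels' protocols. The build is hg38, and DESeq2 is named, per the submitters' processing notes. Neither aligner nor counter is given in the sources used here. The deposited gene table holds CPM values made by the authors, under a header shifted by 1 cell. Each value was a whole multiple of what 1 read is worth (100.0% of values within 0.1 reads), so reads were recovered. The deposited transcript table holds counts. With the header shift undone, 24 of 24 gene columns correlated best with their own name in the transcript table, and 0 did with the header as it stands. Symbols were taken from GENCODE 29 for 90.5% of identifiers.

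Genes were kept by edgeR 4.0.16 filterByExpr (minimum 10 reads, total 15), scaled by TMM and tested as log2(CPM + 0.25) with limma 3.58.1 (trend) in 1 fit of 8 groups and 18 comparisons, with Python 3.11 for summaries. The scale understates changes of low genes. On data simulated for KO against WT at 48 h (18638 genes), 98 of 100 genes changed 2-fold and 100 of 100 changed 4-fold were recovered, and 15 of 213 calls were false. The simulation used 1 spread for all genes and libraries, and changed only genes of at least 1 CPM in WT at 0 h. It held no libraries that stood apart, so it gives no recovery rate for lower genes or for the spread seen here. No 2 replicates of a group were within sampling noise: in all 24 pairs the chi-square over the degrees of freedom was at least 3.27. Alternatives were edgeR's quasi-likelihood test and DESeq2 1.42.0 on the recovered reads, other scalings, filters and pseudocounts, array weights, only the groups compared, a replicate block, leaving out 1 library, and leaving out the 3 libraries that stood apart. The 10 genes, the lists, the markers and the rule for named genes were chosen with earlier results of these data known. That rule names the 10 genes, up to 4 genes per other list by adjusted p in WT at 48 against 0 h, up to 2 per list called between KO and WT at 48 h, and 2 nearest patterns per gene; WLS as the 1 modulator lower in KO was added after its values were seen. A gene that the rule names among the beta-catenin targets is not reported here. Intervals cover counting error only.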

Additional observations from a re-analysis of the deposited data

Results flagged for a closer look

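In 14 instances the change over time differed between genotypes by the interaction test (limma, adjusted p under 0.05), and in all of them the KO change was the lower one. The 14 come from 6 genes, counted once per interval. Of all genes, 5.45%, 5.46% and 3.92% were called with a negative difference from 0 to 3, 6 and 48 h, and 2.9% from 6 to 48 h. From 6 to 48 h the 2 estimates had opposite signs for LEF1 (0.91 in WT, -0.24 in KO) and NKD1 (0.41 and -0.72). The KO value of LEF1 and the WT value of NKD1 were not called (limma adjusted p 0.252 and 0.117). The NKD1 difference stayed called in 7 of 12 fits that each left out 1 library. From 0 to 3 h the only gene with a called difference was SP5 (-1.12), and from 0 to 6 h it was SP5 again (-1.52). SP5 rose in both genotypes over these intervals. From 0 to 48 h the differences were -2.62 for SP5, -1.92 for LEF1, -0.69 for TCF7, -1.31 for NKD1, -2.14 for DKK1 and -4.03 for RSPO3. From 6 to 48 h, the comparison added after the data were seen, they were -1.10 for SP5, -1.14 for LEF1, -0.65 for TCF7, -1.13 for NKD1, -1.56 for DKK1 and -4.17 for RSPO3. The 2 sets share the 48 h libraries and are not independent. The intervals from 0 h also share the 0 h libraries, in which SP5 and LEF1 were called higher in KO.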

How the results depend on the processing

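With a replicate block the same numbers of the 10 genes were called in every comparison (10 and 9 at 48 h in WT and KO, 6 lower between KO and WT at 48 h). Deviations of replicates with the same number had correlations of -0.186 to 0.219, with 8 of 84 over 0.1. The labels do not state whether the number is a pairing, and these values do not settle it. The counts for 48 against 0 h in each genotype and for KO against WT at 48 h stayed within 1.5 times of those reported under all 13 other settings and under all fits without 1 library. The count for KO against WT at 48 h was above 6 in some settings. APCDD1 was called lower in KO in 5 of the 13 and DKK4 in 4, while AXIN2 was in 1 of 13 and LGR5 in 1 of 12. The change at 3 h that differed between genotypes was called for 1 gene, for 0 with a pseudocount of 1 or only the groups compared, and for 2 with edgeR, DESeq2, array weights or without the 3 libraries that stood apart. At 6 h it was called for 1 gene, for 2 with upper-quartile factors, a pseudocount of 0.1, at least 5 CPM in 3 libraries, edgeR or DESeq2, for 3 without the 3 libraries and for 4 with array weights. From 3 to 6 h in WT 2 genes were called, 5 with only the groups compared, 7 with array weights and 6 without the 3 libraries; in KO 6 were called and 3 with only the groups compared. Between KO and WT, 2 genes were called at 0 h, 1 with only the groups compared and 4 without the 3 libraries. At 3 h 0 were called and 1 with array weights, and at 6 h 0 were called, 2 with only the groups compared or without the 3 libraries, and 3 with array weights. Without 1 library the counts ran from 1 to 2 for the differing change at 3 h and at 6 h, from 1 to 2 for WT from 3 to 6 h and from 3 to 6 for KO from 3 to 6 h. AXIN2 in KO against WT at 0 h, 0.22 and not called, became -0.17 (adjusted p 0.0485) without the 3 libraries. Fewer samples enter the fits without libraries or with only the groups compared; for the other settings the cause was not tested.

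Over all genes, 3032 were called between KO and WT at 0 h, against 190 with only those groups fitted and 6709 without WT library 1, and the share of these called higher was 57.4%, against 43.0% with the deposited CPM. At 48 h 2365 were called, against 3703 without WT 0 h library 1, 6196 with array weights and 4789 without the 3 libraries. The deposited CPM moved the median over all genes by at most 0.13, from 6 to 48 h in WT. LGR5 was not tested under the filter of 5 CPM. With 3 reads worth up to 0.1003 CPM, changes of DKK1, DKK4, RSPO3 and LGR5 before 48 h rest on few reads.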
